A study of Hydra vulgaris with 40 samples.

Results

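Gene expression in polyps of *Hydra vulgaris* that had regenerated a head for 12 h was compared with that in polyps at 6 h, with 2 RNA-seq samples at each time, 4 of the 40 samples of the study. All genes with a value above 0 in at least 2 of these 4 samples entered the comparison, 16870 of the 17438 genes listed. The study followed head regeneration from 0 h to 48 h at 7 time points (14 samples) beside adult tissues (10 samples) and developing buds (16 samples). Both groups were untreated polyps, starved for at least 1 day, that carried the same amputation and differed in the time allowed after it. Each sample was 1 animal, and the labels call the pair at a time point biological replicates. According to the labels the cut was made at the border of R1 and R2 and the R2-R3 region was then collected, whereas the methods state that the apical region was cut off again for RNA.

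A *Hydra* polyp that has lost its head first shows a response to injury that is shared by wounds in many positions. It then sets up a head organizer at the new tip, in which canonical Wnt signalling has a leading part, and forms a hypostome, the cone around the mouth, and a ring of tentacles. Tentacle cells are terminally differentiated and come from body column tissue that is displaced towards the head. The interval from 6 h to 12 h therefore addresses the passage from the early response to the patterning of the new head. Because the tissue was sequenced as a whole, more cells of a type and more RNA per cell cannot be told apart.

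The values are TPM (RNA abundance scaled to a fixed total per sample) adjusted by the authors, and the level of a gene is log2(value + 1) throughout. The 2 samples at a time point hold the same set of values in a different order of genes, so that p-values may be too small, and the depth per sample is unknown. Across genes, Spearman's rho was 0.966 between the 6 h samples, 0.955 between the 12 h samples and 0.923 to 0.942 between samples of different times. The SD over genes of the log2 difference was 0.47 and 0.51 within a time, and 0.65 to 0.75 between times, where the pairs that include 6 h replicate 1 gave the 2 largest values. Each 6 h sample had 957 genes listed at 0 and each 12 h sample had 891. The identifiers carry no gene names, and 0 of them matched the RefSeq table of another *Hydra* assembly used for this purpose. Genes were therefore described through lists built from samples at other times and in other tissues.

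In the limma fit of the 4 samples, 2 genes were higher at 12 h than at 6 h (0.0119% of those tested) and 0 were lower, at an adjusted p under 0.05. At an unadjusted p under 0.05 there were 1834 higher and 3007 lower genes, and 2679 genes had an adjusted p under 0.1. The values of both 12 h samples lay above both 6 h samples in 3980 genes (23.6%) and below both in 5767 genes (34.2%). The median difference over all genes was -0.05. With a minimum value of 1 in at least 2 samples the same test called 302 genes higher and 345 lower, and 0 genes were called in either direction when any 1 of the 4 samples was left out.

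The gene with the largest difference was Sc4wPfr_758.g3710, whose identifier begins with its scaffold in the *Hydra* 2.0 assembly. It was listed at 0 in both 6 h samples and had values of 585 and 767 at 12 h. It was also listed at 0 in all 8 samples from 0 h to 6 h. It had values above 0 at every time from 12 h on, with values of 534 and 478 at 24 h and 868 and 279 at 48 h. In the adult it belonged to the foot genes, with a mean of 6236 in the foot, 3.65 in the tentacles and 0 in the body column, budding zone and hypostome. The difference was 9.39 ± 0.17 (SE, n = 2 per time, limma adjusted p = 0.00409), and no fold is given because the 6 h samples were listed at 0. When either 12 h sample was left out, too few samples above 0 remained for the filter of at least 2, so this gene was not tested there.

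The other gene past the threshold was Sc4wPfr_875.1.g17154, with values of 9.47 and 11.8 at 6 h and 166 and 159 at 12 h. This is a 15.3-fold higher mean (difference 3.82 ± 0.14, SE, limma adjusted p = 0.0409). All 6 samples from 12 h on lay between 159 and 264, above the 8 samples up to 6 h, the highest of which had 31.7. In contrast to the first gene, it was broadly expressed in the adult, with means of 346 in the body column, 335 in the budding zone, 205 in the hypostome, 174 in the foot and 97.1 in the tentacles. Its early values were thus below those of the uncut body column. With a spread estimated over 14 samples its limma adjusted p was 0.0595, and without a filter both genes missed the threshold (limma adjusted p = 0.0733 and 0.0835).

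No gene that was lower at 12 h passed in the fit of 4 samples. The 2 largest falls among genes past the threshold in the fit of all 14 regeneration samples are given instead. Sc4wPfr_1384.g16116, a trunk gene of the adult with a mean of 65.4 in the body column and 0 in the tentacles, had values of 87.1 and 73.2 at 6 h and of 7.25 and 0 at 12 h. The difference was -4.82, with a limma adjusted p of 0.077 in the fit of 4 and 0.0295 in the fit of 14. At 24 h its values were 19.3 and 24.8, and at 48 h they were 0 and 18.5, so that every sample after 6 h lay below the 60.0 to 90.4 of the 8 early samples.

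Sc4wPfr_547.1.g24983 fell from 23.2 and 26.1 at 6 h to 0.31 and 0 at 12 h (difference -4.48, limma adjusted p of 0.0593 in the fit of 4 and 0.00329 in the fit of 14). It was near even across adult tissues, with means from 22.7 in the foot to 42.9 in the hypostome. The low point at 12 h was followed by values of 11.0 and 4.71 at 24 h and 4.57 and 24.2 at 48 h, and the last of these was again within the early range of 19.1 to 48.4. Of the opsins, the receptor family that the study set out to describe, only HvOpD8 and HvOpD9 could be matched to an identifier, so they do not represent the family. Opsins include light-sensing receptors, but the paper reports that HvOpD9 lacks the lysine that binds retinal. Both genes were close to 0 at both times. HvOpD8 had values of 0.22 and 0.11 at 6 h and 0.39 and 0.12 at 12 h (limma adjusted p = 0.759). HvOpD9 had 0.14 and 0.16 at 6 h and 0.13 and 0.26 at 12 h (limma adjusted p = 0.852).

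**Figure D1:**
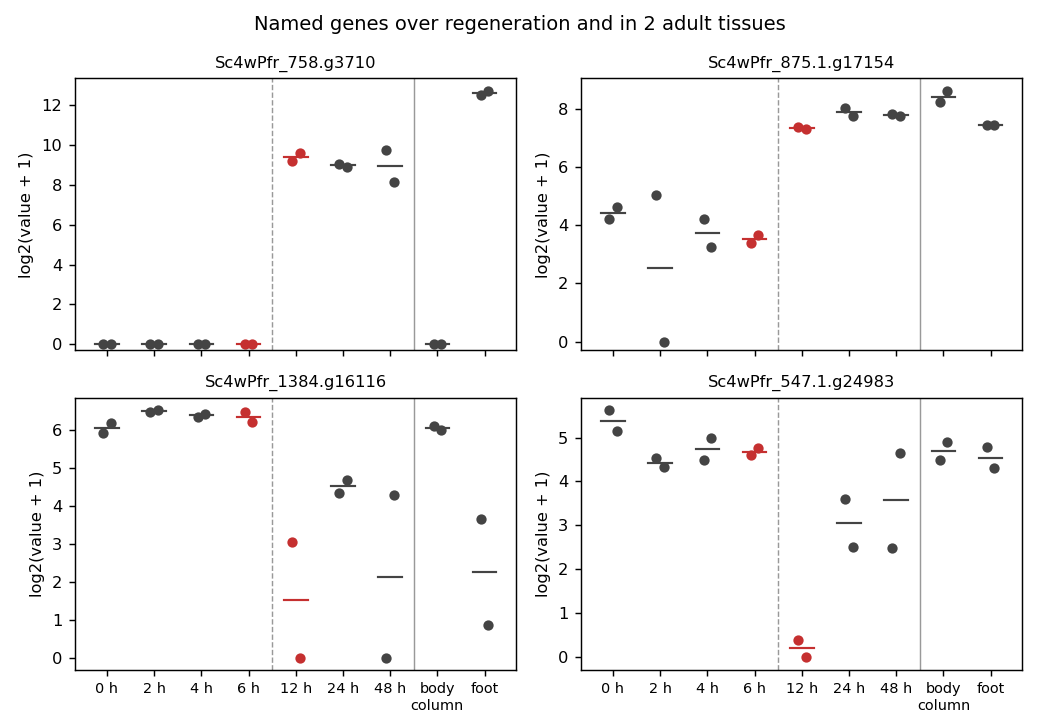
Level, log2(value + 1), of the 4 genes described by identifier in each sample of the regeneration course and in the adult body column and foot. Points are samples, bars are means of 2 samples, red marks 6 h and 12 h, and the dashed line separates them. Sc4wPfr_758.g3710 goes from listed at 0 to 585 and 767, and Sc4wPfr_547.1.g24983 has its lowest values, 0.31 and 0, at 12 h.

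To describe the whole set of genes, the spread was also estimated over the 14 samples of the 7 time points, in a limma fit that tested 17287 genes for the same difference of 12 h and 6 h. It called 811 genes higher at 12 h (4.69%) and 1601 lower (9.26%). In the limma fit of 4 samples, 808 and 1596 of them had an unadjusted p under 0.05, against 1834 higher and 3007 lower of all 16870 genes. Both fits take the difference from the same 4 samples, so its direction is the same by construction and this overlap is no separate support. The balance of the directions depended on the scaling: with median-ratio scaling 1009 genes were higher and 846 lower, and with quantile normalization 810 were higher and 829 lower. Among these, 809 of the 811 higher genes and 846 of the 1601 lower genes were called in the same direction with median-ratio scaling. Leaving out a sample reduced the counts, to 122 higher and 161 lower without 6 h replicate 1, 384 and 625 without 6 h replicate 2, 359 and 634 without 12 h replicate 1, and 374 and 683 without 12 h replicate 2.

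The higher and the lower genes are described here by their level and the size of their change. The higher genes went from a median level of 2.21 at 6 h to 3.56 at 12 h, and their median difference was 1.04. Of them, 435 (53.6%) changed by at least 1, 94 by at least 2 and 20 by at least 3. The lower genes were more strongly expressed, with a median level of 4.97 at 6 h and 4.19 at 12 h, and had a median difference of 0.74 in size. Only 335 of them (20.9%) changed by at least 1, and 36 by at least 2. Among genes with a mean level of 4 to 6, 707 of 3419 were lower (20.7%), against 28 of 4007 (0.699%) below a level of 1. Higher genes were 4.94% and 2.85% of these 2 groups. Below a level of 1 this scale leaves little room for a fall. With median-ratio scaling, 374 of these 3419 genes were lower.

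**Figure D2:**
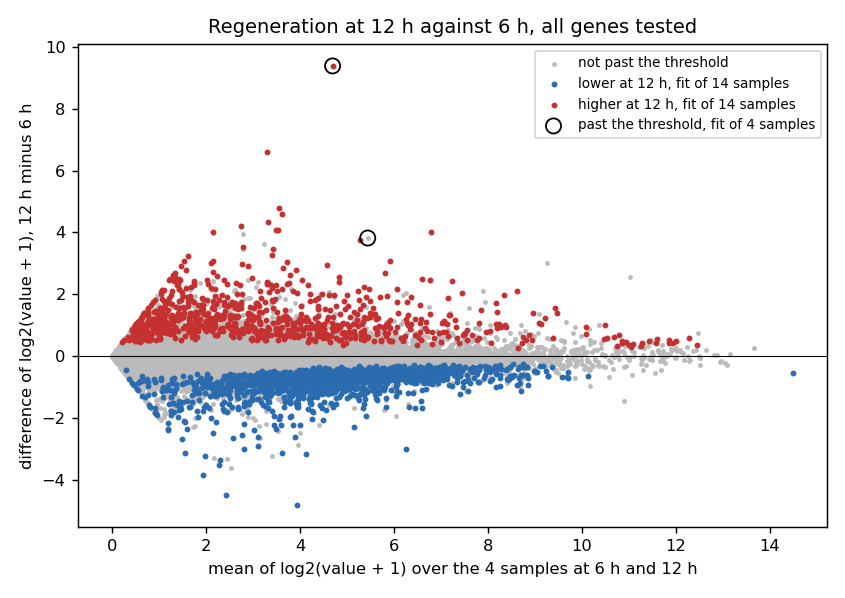
Difference of log2(value + 1) between 12 h and 6 h against the mean level over the 4 samples, 1 point per gene. Red and blue mark genes higher (811) and lower (1601) in the fit of 14 samples, circles mark the 2 genes past the threshold in the fit of 4, and the lower genes lie mostly at levels above 2 with differences smaller than 1.

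To ask whether these differences continued or were particular to 12 h, the times outside the comparison were examined. The midpoint between the 6 h and 12 h means of a gene served as the dividing level. Of the 811 higher genes, 421 (51.9%) were below it at 4 h and above it at 24 h, a step from early to late, and 347 (42.8%) were below it at both times, so that 12 h stood apart. Of the 1601 lower genes, 1126 (70.3%) showed the step and 287 (17.9%) stood apart at 12 h. Over all 17287 genes, whatever their own direction, 21.8% were at or below their midpoint at 4 h and above it at 24 h. The share at or below it at both times was 28.0%. In the opposite order, 26.1% were at or above it at 4 h and below it at 24 h, and 24.6% were at or above it at both times. These shares mix genes that rose and fell between 6 h and 12 h, so they are not a matched background for the called genes. The 6 h samples stood apart in 28 higher and 159 lower genes.

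The 24 h and 4 h samples, which were not in the comparison, differed in the same direction in 702 of the higher genes (86.6%, against 46.2% of all genes) and in 1490 of the lower genes (93.1%, against 52.6%). In 606 (74.7%) and 1323 (82.6%) of them both 24 h samples lay on that side of both 4 h samples, compared with 23.3% and 28.4% of all genes. The difference between 48 h and 0 h had the same direction in 690 (85.1%, against 43.5% of all genes) and 1501 (93.8%, against 55.7%). The median level of the higher genes was 1.99, 2.02, 2.18 and 2.21 at 0, 2, 4 and 6 h and 3.56, 3.08 and 3.21 at 12, 24 and 48 h. That of the lower genes was 4.95, 5.04, 4.89 and 4.97 up to 6 h and 4.19, 4.42 and 4.37 from 12 h on. The genes were chosen on their difference between 6 h and 12 h, so their levels at 6 h and 12 h are bound to that choice. The spread used in it came from all regeneration samples, so genes with close replicates at the other times were favoured. The shares without overlap between 24 h and 4 h may be raised by this, which was not tested. The direction of change between the other times did not enter the choice. At these times the median level of the higher genes was at most 2.18 before and at least 3.08 after.

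Genes of the late response were the first group examined. The late-rise list holds 1168 genes that were at least 1 higher in log2 level at 48 h than at 0 h, without overlap of samples. At 12 h 239 of them were higher (20.5%, against 4.69% of all genes) and 8 were lower (0.685%, against 9.26%). The summed values of the list were 25191 and 27221 at 6 h and 48221 and 46743 at 12 h, so that both later samples lay above both earlier ones. The median level of the list was 1.64 at 0 h, 2.10 at 6 h, 2.71 at 12 h, 2.53 at 24 h and 3.71 at 48 h. The median difference between 12 h and 6 h was 0.55 over the 1104 members tested in the fit of 4.

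The late-fall list, 607 genes at least 1 lower at 48 h than at 0 h, showed the opposite pattern. At 12 h 156 of its members were lower (25.7%, against 9.26% of all genes) and 2 were higher (0.329%, against 4.69%). With median-ratio scaling 123 were lower, against 4.89% of all genes. Its summed values were 43480 and 46319 at 6 h and 34799 and 39893 at 12 h, and its median level went from 3.67 to 2.84, more than between any other neighbouring times shown in the plot of list levels. The median difference was -0.67 over 602 members tested.

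Few genes of the early response were lower at 12 h. The 2 h rise list (226 genes at least 1 higher at 2 h than at 0 h) had 18 members higher (7.96%, against 4.69% of all genes) and 5 lower (2.21%, against 9.26%) at 12 h, with summed values of 4931 and 5136 at 6 h and 6518 and 7520 at 12 h. The 4 h rise list (222 genes) had 45 higher (20.3%, against 4.69% of all genes) and 2 lower (0.901%, against 9.26%). Its summed values were 5069 and 5831 at 6 h and 9945 and 12111 at 12 h, and its median level was 1.00 at 0 h, 2.82 at 4 h, 2.52 at 6 h, 3.12 at 12 h, 2.39 at 24 h and 2.30 at 48 h. The list was thus at its highest at 12 h. Median differences were 0.09 for the 2 h rise and 0.39 for the 4 h rise, against -0.05 for all genes.

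A division of the 4 h rise list, made after these values were seen, separated members that also belonged to the late rise. Of the 78 shared genes, 27 were higher at 12 h (34.6%, against 4.69% of all genes) and 1 was lower, and their median level was 2.75 at 4 h, 2.90 at 6 h, 3.99 at 12 h and 3.24 at 24 h. Of the 144 other genes, 18 were higher (12.5%) and 1 was lower, with a median level of 2.87 at 4 h, 2.29 at 6 h, 2.55 at 12 h and 1.99 at 24 h. Of the 1601 lower genes only 5 (0.312%) were members of the 2 h or 4 h rise, compared with 47 of the 811 higher genes (5.80%) and 354 of all 17287 genes tested (2.05%). Among the genes first reduced after the cut, the shares on both sides were below the 4.69% and 9.26% of all genes. The 2 h fall list (161 genes) had 2 higher (1.24%) and 5 lower (3.11%), with a median difference of 0.23 that was 0.0018 without 6 h replicate 1. The 4 h fall list (215 genes) had 3 higher (1.40%) and 11 lower (5.12%), with a median difference of -0.12 that was 0.018 without 12 h replicate 2.

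**Figure D3:**
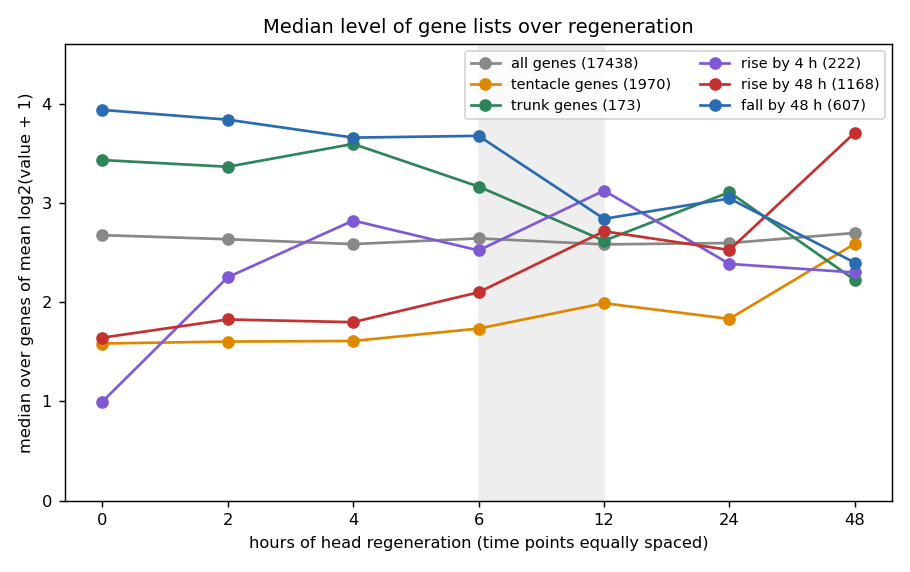
Median over the genes of a list of the mean log2(value + 1) at each time of head regeneration (times equally spaced), with the interval from 6 h to 12 h shaded and list sizes in parentheses. The late-rise genes (rise by 48 h) go from 2.10 to 2.71 and the late-fall genes (fall by 48 h) from 3.67 to 2.84 in this interval, and the genes of the 4 h rise are highest at 12 h with 3.12.

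The adult body map gave lists for head structures, and these served to ask how far head identity was present at 12 h. The tentacle list holds 1970 genes at least 1 higher in the tentacles than in each of the other 4 tissues, without overlap of samples. At 12 h 182 of them were higher (9.24%, against 4.69% of all genes) and 42 were lower (2.13%, against 9.26%). Their summed values were 36130 and 37309 at 6 h and 45947 and 44977 at 12 h, whereas adult tentacles had 227056 and 234395. Their median level was 1.73 at 6 h, 1.99 at 12 h, 1.83 at 24 h, 2.59 at 48 h and 4.76 in tentacles, so that it was lower at 24 h than at 12 h. The level at 12 h thus remained far below that of adult tentacles, the samples on which the list was chosen. Of all genes at a mean level of 1 to 2 over the 4 samples, 5.62% were higher and 2.54% lower. The share of lower tentacle genes was near the latter, and none of the lists was matched to all genes on level.

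The tentacle genes also differed among themselves. Of the 550 that belonged to the late rise, 84 were higher at 12 h (15.3%) and 4 were lower (0.727%), and their median level went from 1.89 to 2.42. Of the other 1420, 98 were higher (7.08% of the 1385 tested) and 38 lower (2.74%), against 4.69% and 9.26% of all genes. The median level of these 1420 genes was 1.64 at 6 h and 1.73 at 12 h. Sorted by their excess in tentacles over the next tissue, the share of tested members that were higher was 9.07% for an excess of 1 to 2, 11.6% for 2 to 3, 7.55% for 3 to 4 and 8.25% for 4 or more. The median difference was 0.11, 0.20, 0.22 and 0.25 in this order. The 618 late-rise genes outside the tentacle list had 155 members higher (25.1%) and 4 lower (0.647%).

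In the hypostome list (364 genes) 25 members were higher (6.87%, against 4.69% of all genes) and 14 lower (3.85%, against 9.26%), and the median difference was 0.05 over 352 members tested. Its summed values were 8738 and 15112 at 6 h and 15046 and 14846 at 12 h, so that only 6 h replicate 1 was low and the times overlapped. Without that sample the median difference was -0.07. Head genes, higher in both tentacles and hypostome than in the other tissues (519 genes), had 35 higher (6.74%, against 4.69% of all genes) and 11 lower members (2.12%, against 9.26%). Their median difference was 0.15, with 0.015 when 6 h replicate 1 was left out and 0.30 when 6 h replicate 2 was left out. Their summed values were 9786 and 13026 at 6 h and 14015 and 15338 at 12 h, against 79096 and 82161 in adult tentacles and 35508 and 36257 in the adult hypostome.

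For the tissues away from the head, the trunk list of body column and budding zone genes (173 genes) had 5 higher (2.89%, against 4.69% of all genes) and 8 lower members (4.62%, against 9.26%) and a median difference of -0.10. Its summed values of 29143 and 22843 at 6 h overlapped with 26145 and 30389 at 12 h, and both lay below the 50270 and 50464 of the adult body column and above the 1032 and 1060 of tentacles. The list was chosen on these adult samples, as high in the body column and low in the tentacles. A place between the 2 tissues therefore does not measure the trunk tissue in the regeneration samples. The 84 body column genes had 0 higher and 3 lower members (3.57%, against 9.26% of all genes), with a median difference of 0.19. The 19 budding zone genes had 2 higher (10.5%, against 4.69% of all genes) and 0 lower, with a median difference of 0.34. The medians of these lists changed sign when single samples were left out. The trunk median was 0.027 without 6 h replicate 1 and 0.005 without 12 h replicate 1, the body column median was -0.18 without 6 h replicate 2 and -0.21 without 12 h replicate 2, and the budding zone median was -0.045 without 12 h replicate 1.

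The foot, whose basal disc anchors the polyp, lies at the end opposite to the head. Of the 314 genes of its list, 224 passed the filter of the fit of 14, 34 were higher and 4 were lower. The higher genes were 10.8% of the 314 and 15.2% of the 224, against 4.69% of all genes tested, and the lower genes were 1.27% of the 314, against 9.26%. The summed values were 5651 and 4416 at 6 h and 9224 and 9432 at 12 h, against 67652 and 74517 in the adult foot. The median level over all 314 genes was 0.29 at 6 h and 0.37 at 12 h, so that most members were near 0 at both times, and the median difference was 0.12 over the 191 tested in the fit of 4. Of all genes below a mean level of 1, 2.85% were higher and 0.699% lower, so the low share of lower foot genes cannot be read apart from their level. Foot genes and late-rise genes shared 24 members, 7.64% of the foot genes, and the late rise held 6.76% of all genes tested.

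The genes that increase while a bud forms its head, of which 491 were also tentacle genes, had 92 of 1147 members higher at 12 h (8.02%, against 4.69% of all genes) and 29 lower (2.53%, against 9.26%). The 97 genes that decrease in buds had 4 higher (4.12%, against 4.69%) and 2 lower (2.06%, against 9.26%). Their median differences were 0.10 and -0.08. Among the 811 higher genes, 261 (32.2%) belonged to at least 1 of the 7 tissue lists, whereas 76 of the 1601 lower genes did (4.75%), compared with 17.2% of all genes tested. Any of the 15 lists held 417 of the higher genes (51.4%) and 242 of the lower genes (15.1%), compared with 26.7% of all genes tested. Most of the lower genes were thus outside every list. At 6 h the lower genes had a median level of 4.97 and the higher genes of 2.21, whereas tentacle genes, the largest tissue list, had 1.73. Membership was not compared at like level, so these shares cannot separate list from level.

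**Figure D4:**
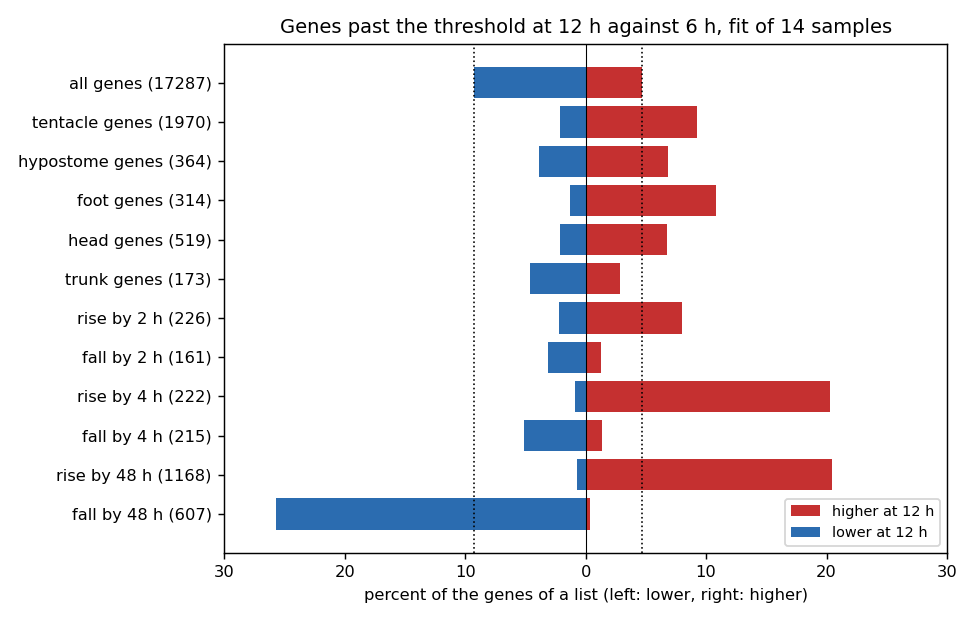
Percent of all genes of a list, tested or not, that were higher (red, right) or lower (blue, left) at 12 h than at 6 h in the fit of 14 samples, with list sizes in parentheses and dotted lines at the values of all genes tested, 4.69% and 9.26%. The late-rise list (rise by 48 h) and the 4 h rise list have 20.5% and 20.3% of their genes higher, and the late-fall list (fall by 48 h) has 25.7% lower.

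Some genes divided the time course between 6 h and 12 h without overlap. In 721 of the 17287 genes tested all 6 samples from 12 h to 48 h lay above all 8 samples from 0 h to 6 h, and in 1670 all lay below. The balance of these 2 counts under other scalings was not tested. Cuts between other times were not counted, so the cut between 6 h and 12 h cannot be ranked against them. In 38 genes (0.22%) the gap between the sets was larger than 1 in the direction of a rise and in 5 genes (0.0289%) in the direction of a fall. The 38 genes had a median level of 1.29 at 6 h and 4.39 at 12 h, and 5 of them were listed at 0 in every early sample. Of the 38, 10 were tentacle genes, 4 were foot genes and 2 were hypostome genes, lists that hold 11.2%, 1.30% and 2.10% of all genes tested. The 5 lower genes had a median level of 5.28 at 6 h and 1.52 at 12 h, and none of them was a tentacle, foot or hypostome gene.

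The uncut adult body column was set beside these genes. Body column genes had a median level of 0.27 at 0 h and 3.73 in the adult body column, and trunk genes had 3.43 and 4.85. Both lists were chosen for high values in these adult samples, so they cannot show how far the freshly cut samples differed from them. Whether the adult body column equals freshly cut tissue was not tested. In 23 of the 38 genes both body column samples also lay above all 8 early samples. In 3 of the 5 lower genes both lay below them. Over the called genes, both body column samples were above all early samples in 245 of the 811 higher genes (30.2%, against 15.3% of all genes), and below them in 971 of the 1601 lower genes (60.6%, against 18.0%). Measured instead by distance, the body column mean was nearer to 12 h than to 6 h in 257 of the 811 higher genes (31.7%) and in 991 of the 1601 lower genes (61.9%), against 49.6% of all genes. By this measure the body column level of most higher genes was nearer to that at 6 h. The batches that the authors removed are not named, and the part of batches and of their removal in this division was not tested.

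**Figure D5:**
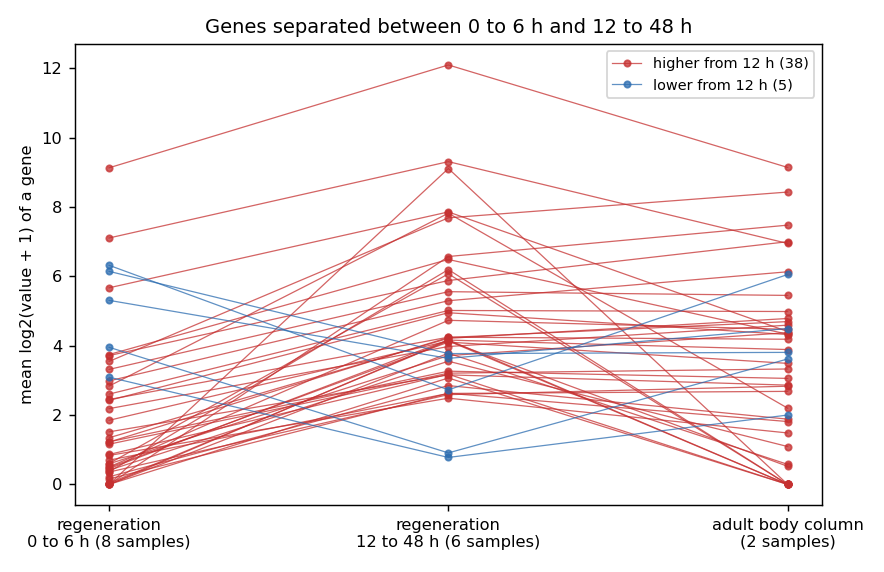
Mean log2(value + 1) of the 38 genes (red) and 5 genes (blue) for which the 6 samples from 12 h to 48 h lie more than 1 above or below all 8 samples from 0 h to 6 h, with the mean of the 2 adult body column samples at the right. Each line is a gene, and in 23 of the 38 both body column samples lie above all early samples.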

How the data were processed

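RNA-seq libraries were prepared from total RNA with a Smart-seq2 protocol. The authors used Trimmomatic 0.35 to trim the reads, bowtie 1.2 to place them on their transcriptome and RSEM 1.2.31 to estimate TPM, then removed batch effects with ComBat and applied qsmooth. The deposited values are taken here as a signal on the scale of TPM, because both samples of a time point hold one set of values. The columns sum to 1000060 at 6 h and 997100 at 12 h. Without counts the depth and its precision are unknown. The batches are not named, and 0 value columns lacked a sample.

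Values were analysed as log2(value + 1), with a pseudocount of 1, in limma 3.58.1 (lmFit, eBayes with a trend) in R 4.3.3, two-sided, with Benjamini-Hochberg adjustment over all genes tested. The script was tested on simulated data. The 2 samples at 12 h were compared with the 2 at 6 h, and a fit of the 14 regeneration samples, filtered for a value above 0 in at least 2 of them, gave the counts of genes in lists. An exact permutation test of 2 against 2 cannot give a p below 0.333 and was not used.

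The 15 lists required a mean log2 difference of at least 1 and no overlap of samples. They also required a mean value of at least 2 on the high side, for head and trunk lists in at least 1 of the 2 tissues. They used no 6 h or 12 h sample: 7 came from the body map, 6 from 2 h, 4 h and 48 h against 0 h, and 2 from bud stages 8 and 10 against 1 and 3. The samples behind the 6 time lists also entered the spread of the fit of 14. Genes with close replicates were thus favoured in both, which may raise the shares of these lists and was not tested. The comparison, members and lists were chosen with earlier results of these data known. Named genes were the 2 largest rises and 2 largest falls past the threshold without overlap, and matched opsins; the falls came from the fit of 14 because the fit of 4 called none. Calculations used Python 3.11.15, pandas 2.3.3 and numpy 2.4.6, and plots matplotlib 3.10.9. Alternatives were another pseudocount, a minimum value, no filter, 2 scalings, a replicate block, other sample sets, eBayes settings, stricter lists and leaving out each sample.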

Additional observations from a re-analysis of the deposited data

How the results depend on the processing

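The number of genes past the threshold depended on the fit. Against 2 higher and 0 lower genes in the limma fit of 4 samples, there were 4 and 0 with a pseudocount of 0.1, 302 and 345 with a minimum value of 1, 0 and 0 with no filter (4729 genes at an unadjusted p under 0.05), 811 and 1601 with 14 samples, 680 and 1074 with all 40 samples, and 1 and 0 without a trend. Quantile normalization kept 2 and 0, median-ratio scaling gave 3 and 0, and leaving out any 1 sample gave 0 and 0 (2733 to 4105 genes at an unadjusted p under 0.05). The step between 4 h and 24 h held 4 higher genes with the pseudocount of 0.1, and 421 higher and 1126 lower genes in the fit of 14. With the replicate number as a block, 0 and 0 genes passed in the fit of 4, and 748 and 1423 in the fit of 14. The numbers are not known to pair the samples, since only 2 pairs exist and their deviations correlated with r = 0.11 over 16870 genes.

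Alternatives for the fit of 14 were added after seeing the data. They gave 633 higher and 1561 lower genes with a pseudocount of 0.1, 799 and 1683 with a minimum value of 1, 829 lower with quantile normalization and 846 lower with median-ratio scaling. Leaving out 1 sample at 6 h or 12 h gave 122 to 384 higher and 161 to 683 lower.

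Of 120 alternative values for the 15 list medians, 91 moved by less than the spread between samples, 22 moved further and 7 changed sign. With a pseudocount of 0.1 the medians were 0.21 for tentacle and 0.21 for foot genes and -0.79 for the late fall. Median-ratio scaling gave 0.20 for tentacle genes and 0.18 for the bud rise. Lists cut at a difference of 2 gave 0.21 for tentacle, 2.35 for budding zone, 0.31 for foot and -0.43 for trunk genes, 0.22 for the 2 h rise, 0.83 for the 4 h rise, 0.77 for the late rise and -0.87 for the late fall. Leaving out 1 sample gave ranges of -0.073 to 0.26 for hypostome, -0.21 to 0.38 for body column, -0.045 to 0.78 for budding zone, 0.066 to 0.20 for foot, 0.015 to 0.30 for head and -0.33 to 0.027 for trunk genes, 0.0018 to 0.38 for the 2 h fall, -0.24 to 0.018 for the 4 h fall and 0.048 to 0.19 for the bud rise. The body column median was -0.18 without 6 h replicate 2, and the trunk median was 0.005 without 12 h replicate 1. The medians of tentacle genes (0.12 to 0.18), the 4 h rise (0.36 to 0.51), the late rise (0.46 to 0.67) and the late fall (-0.69 to -0.63) kept their sign.

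Of 80 alternative values for the 6 named genes, 60 kept their direction and side of the threshold, 12 lost it, 5 gained it and 3 changed sign. The latter were the opsins HvOpD8 (-0.055 without 12 h replicate 1) and HvOpD9 (-0.0022 with quantile normalization, and -0.025 to 0.13 over the samples left out). Depth is unknown, so that the limit of detection behind a value listed at 0 could not be given.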

Other observations

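Genes that were higher or lower at 12 h were often close to others of the same kind in the order of gene models on a scaffold. Of the 811 higher genes, 244 (30.1%) had another higher gene within 5 model numbers on their scaffold, compared with 20.1% of the 16476 other genes tested. Of the 1601 lower genes, 817 (51.0%) had another lower gene in that window, compared with 36.5% of the 15686 others. The higher genes lay on 458 and the lower genes on 601 of 1527 scaffolds.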
